A study of Homo sapiens with 36 samples.

Results

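The genes described here are 10 enzymes of glycolysis, PGK1, PGAM1, ENO1, LDHA, ALDOA, TPI1, PKM, GAPDH, PFKP and HK2, found by symbol among 21797 listed genes and in the m6A peak tables. All 10 were listed and all 10 passed the filter on low values, as did 18227 genes in all. PGK1 was chosen by its RNA difference from scramble and its m6A peak, which were already known to stand out, so both are given as a description with no test. The other enzymes were selected as its partners in the pathway, with earlier results in view.

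UM-SCC-1 cells, which are an established head and neck squamous carcinoma line, were infected with retrovirus carrying ALKBH5 shRNA-1, ALKBH5 shRNA-2 or an ALKBH5-set scramble, or RBM33 shRNA-1, RBM33 shRNA-2 or an RBM33-set scramble. All groups then had 4 days of 10 ug/mL blasticidin. RNA levels were read from 15 of 18 RNA-seq libraries: 2, 2 and 3 libraries of ALKBH5 shRNA-1, shRNA-2 and scramble, and 2, 3 and 3 of RBM33 shRNA-1, shRNA-2 and scramble. m6A was read from the authors' 4 comparisons of an shRNA with its scramble, which give no value per library. Both shRNAs of a target share 1 scramble group, so their values beside each other are not independent.

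Glycolysis splits glucose into pyruvate in the cytosol. HK2 and PFKP add phosphate to the sugar, ALDOA and TPI1 cut and rearrange it, GAPDH and PGK1 carry out the first oxidation and the first ATP-forming step, PGAM1, ENO1 and PKM lead on to pyruvate, and LDHA reduces pyruvate to lactate. Tumour cells are known for high glycolysis even with oxygen present, and most of these genes are textbook targets of the hypoxia-inducible factors (HIF). N6-methyladenosine (m6A) is a base modification of mRNA that ALKBH5 removes, and RBM33 binds RNA and is known to act with ALKBH5.

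Libraries held 4493849 to 6733017 reads in listed genes. ALKBH5 RNA was at 75.08 to 89.59 CPM (reads scaled to the authors' normalized library size) in ALKBH5 shRNA libraries and 108.8 to 131.7 CPM in their scramble, with a change of -0.53 log2 units (SE 0.08, limma adjusted p = 9.1e-05). RBM33 RNA was at 191.4 to 214.4 CPM in libraries labelled RBM33 shRNA and 207.2 to 227.1 CPM in their scramble, with a difference of -0.10 log2 units (SE 0.06, limma adjusted p = 0.27), so those libraries are named by their label. The squamous label met little expression of its defining markers: KRT5, KRT14, KRT6A, KRT17 and TP63 had no row in the CPM table, and EPCAM, CDH1, ITGB4 and LAMB3 summed to 1.92 to 9.05 CPM per library. In the authors' deposited DESeq2 tables, the mean normalized signal of these 5 genes without a row was 0.521 to 6.44, against 2166 and 2906 for PGK1. Of 6 fibroblast, 4 leukocyte and 3 endothelial markers, 6, 2 and 1 were listed. Fibroblast markers summed to 26.5 to 40.3 CPM, leukocyte markers to 0.461 to 3.28 CPM and endothelial markers to 0 to 1.93 CPM. Marker sums of shRNA and scramble libraries overlapped for all 4 lists in the ALKBH5 set and for 3 in the RBM33 set. The fibroblast sum was 26.5 to 33.2 CPM with RBM33 shRNA and 33.6 to 38.8 CPM with scramble. Most of this sum came from the collagen genes COL1A1 and COL3A1. The other fibroblast markers, COL1A2, DCN, LUM and PDGFRB, averaged 0.555 to 1.74 CPM over all libraries. The part of this sum in the RBM33 results was not tested.

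The m6A peak at the start of PGK1 had the highest effect in every one of the 4 effect tables. Its sequence is shown because the peak crosses the RefSeq start of the gene. The stretch below covers X:78104169-78104277 on the plus strand (RefSeq, GRCh38.p14). Capitals mark the bases that lie in the peak of the RBM33 tables, which runs on beyond the printed end.
PGK1 start: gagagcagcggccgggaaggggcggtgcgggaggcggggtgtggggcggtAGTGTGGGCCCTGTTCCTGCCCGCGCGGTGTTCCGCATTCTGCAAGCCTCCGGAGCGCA
RefSeq places the start of PGK1 at base 78104248, so the peak of both RBM33 tables (X:78104219-78104318, hg38) began 29 bases before it. In the authors' deposited ALKBH5 tables the peak covered X:78104169-78104368 with shRNA-1 and X:78104219-78104368 with shRNA-2. The sequence GGAC, a common form of the m6A consensus, was not among the capitals on this strand, which says only that these letters are not in the printed part. Bases before the RefSeq start lie outside the RefSeq transcript, but inside the listed span of PGK1 (X:77910739-78129295). The human PGK1 promoter is also a common element of viral expression vectors. The sequence of the retroviruses was not found in the sources used here, so reads from such a copy could not be told from those of the gene, and their part in the result was not tested.

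The labels give no base for the log of the effects, and a natural log was inferred from the values. On the natural log scale, the authors' deposited tables gave the PGK1 start peak an effect of 5.99 with ALKBH5 shRNA-1 and 6.37 with ALKBH5 shRNA-2, against scramble. With RBM33 shRNA-1 and shRNA-2 the authors' deposited tables gave effects of 8.60 and 8.73. The next highest effect of any gene was 4.42 (ZNF609), 4.35 (TNRC6A), 5.26 (PIGQ) and 5.40 (PIGQ) in these tables, so PGK1 led each list by more than 1 natural log unit. A second peak of PGK1, near the end of the gene at X:78126155-78126204, had a negative effect of -1.09 in the authors' deposited ALKBH5 shRNA-2 table and was not in the other 3.

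The authors' deposited level tables gave an m6A level in percent for overlapping peaks at this place. How that level relates to the share of RNA molecules methylated is not stated in the sources used here. In the ALKBH5 tables the peaks began 29 bases before the RefSeq start, and were 150 bases wide with shRNA-1 and 100 with shRNA-2. In both RBM33 tables the peak covered bases 21 to 70 after the start, a width of 50 bases. The m6A level was 44.8% with ALKBH5 shRNA-1 and 12% with scramble, and 57.9% with ALKBH5 shRNA-2 and 6.19% with scramble. It was 72.4% with RBM33 shRNA-1 and 1.98% with scramble, and 61.7% with RBM33 shRNA-2 and 2.03% with scramble. Every shRNA level lay above every scramble level, in tables that hold no replicate error. The ratio was 3.75 and 9.36 in the ALKBH5 tables and 36.5 and 30.5 in the RBM33 tables. The peaks behind these ratios differ in extent, so the ratios are not like for like between the sets or between the ALKBH5 shRNAs. Read as natural logs, the effects of the PGK1 start peak were folds of 399 and 581 for ALKBH5 and 5430 and 6190 for RBM33. These folds were far larger than the level ratios, and the cause of that gap was not tested. PGK1 had the highest log2 ratio in the level tables of ALKBH5 shRNA-2 and of both RBM33 shRNAs, and stood at rank 99 of 725 peaks in that of ALKBH5 shRNA-1, led by HIST1H2AG.

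**Figure D1:**
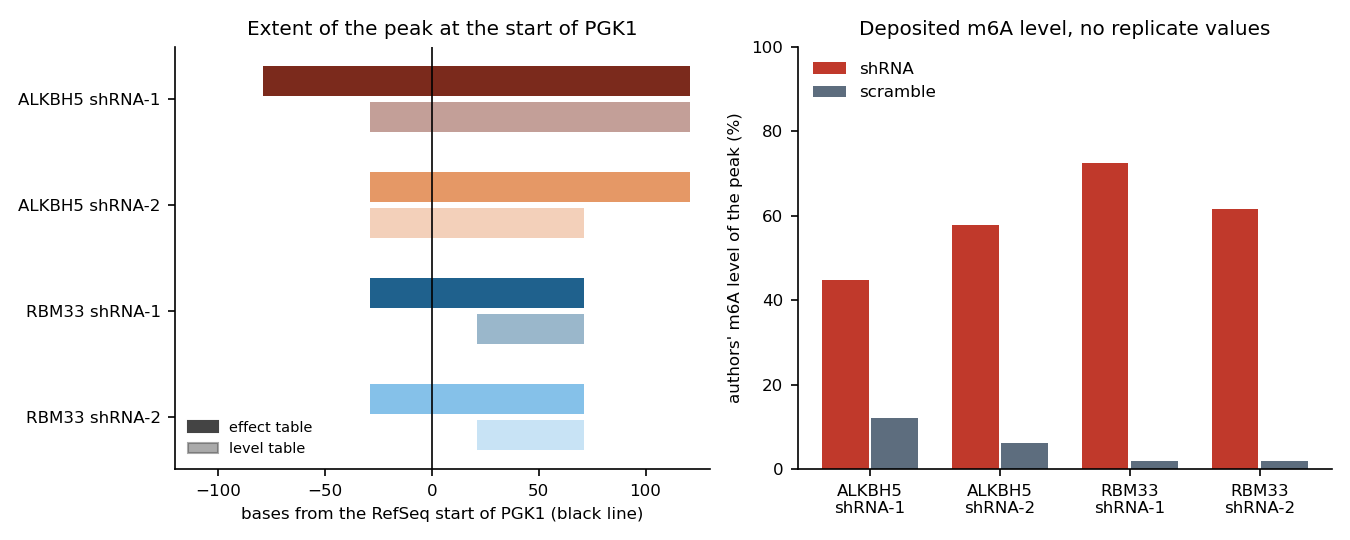
The m6A peak at the start of PGK1 in the authors' tables. Left, bases covered by the peak relative to the RefSeq start (0) in each effect table (full colour) and level table (pale); right, the deposited m6A level in percent for shRNA and scramble, with no replicate values. Effect-table peaks begin 79 or 29 bases before the start, and shRNA levels lie between 44.8% and 72.4% against 1.98% to 12% for scramble.

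PGK1 RNA differed in the same direction. It was at 449.8 and 419.1 CPM with ALKBH5 shRNA-1 and at 475.1 and 446.2 CPM with ALKBH5 shRNA-2, against 248.4, 247.7 and 240.3 CPM in ALKBH5 scramble libraries. All 4 shRNA libraries lay above all 3 scramble libraries, at 182% of the scramble level. The log2 change was 0.86 (SE 0.06, 95% interval 0.73 to 0.99).
Libraries labelled RBM33 shRNA-1 gave 370.0 and 351.9 CPM of PGK1 and those of RBM33 shRNA-2 gave 366.5, 361.4 and 354.1 CPM, against 284.6, 292.9 and 317.0 CPM with scramble. The groups again did not overlap, and the shRNA level was 121% of scramble. The log2 change was 0.28 (SE 0.06, 95% interval 0.15 to 0.40).
The separate shRNAs of a target had PGK1 log2 changes of 0.82 and 0.90 for ALKBH5 (SE 0.07 each) and 0.28 and 0.27 for RBM33 (SE 0.07 each), against scramble. The interval of the difference between them ran from -0.25 to 0.08 for ALKBH5 shRNA-1 minus shRNA-2, and from -0.15 to 0.16 for RBM33.

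The authors' own gene tables differed from each other on PGK1. Log2 fold changes in the authors' deposited edgeR tables were 0.82 and 0.91 for ALKBH5 shRNA-1 and shRNA-2, and 0.28 and 0.27 for RBM33. In the authors' deposited DESeq2 tables they were 1.42 and 1.46 for ALKBH5 and 0.68 and 0.73 for RBM33. The excess of DESeq2 over edgeR was thus 0.59, 0.56, 0.40 and 0.45, while for the other 9 enzymes in the authors' deposited tables this difference stayed between -0.17 and 0.08. Of genes averaging at least 100 CPM, 1710 were in both the authors' deposited edgeR and DESeq2 tables. Among these, 7, 8, 11 and 14 had an excess at least as large, with PGK1 itself in each count. The sources used here do not say which libraries entered the DESeq2 tables, and the part of this choice in the difference was not tested.

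Levels of different genes were compared per kilobase of gene model. GAPDH was highest, at a mean of 573 CPM per kb over the 15 libraries, followed by TPI1 (263) and ENO1 (238). LDHA (82.4), ALDOA (73.2), PGAM1 (72.7), PGK1 (64.1) and PKM (58.4) formed a middle group, and HK2 (20.1) and PFKP (7.5), which add phosphate to the sugar, were lowest. TPI1 and ENO1 overlapped in their range over libraries (214 to 326 and 210 to 285 CPM per kb), as did neighbours within the middle group. The range of PGK1 was the widest of that group, from 44.2 to 87.4 CPM per kb.

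**Figure D2:**
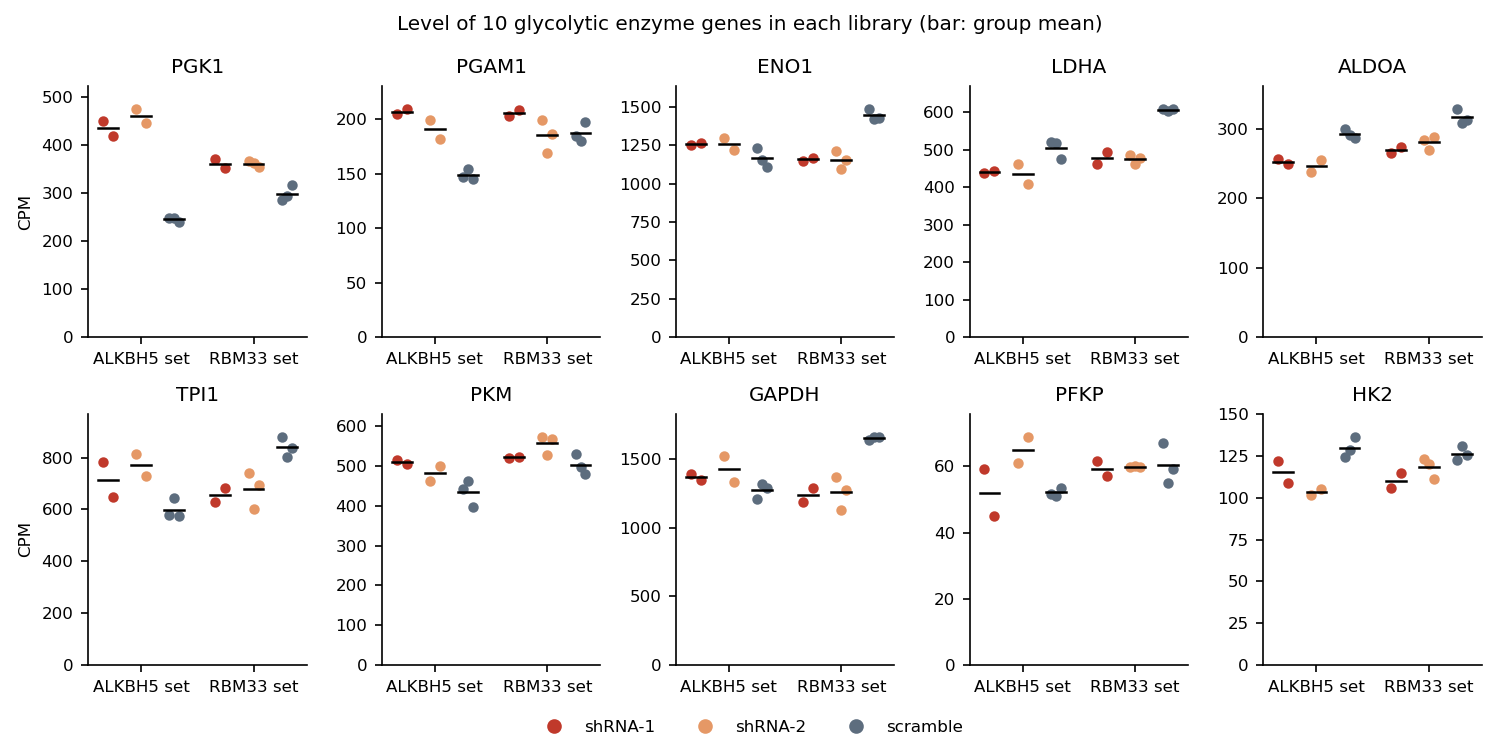
CPM of each gene in every library (points) with the group mean (bar), from 0, for shRNA-1, shRNA-2 and scramble in the ALKBH5 set (left) and the RBM33 set (right). PGK1 points of shRNA libraries all lie above their scramble points, at 419.1 to 475.1 against 240.3 to 248.4 CPM in the ALKBH5 set.

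PGK1 passed the threshold in both sets but was chosen on these contrasts, so nothing is read from its place in the counts. In the ALKBH5 set, 3 of the 10 enzymes, PGK1 among them, were called higher and 3 lower, against 7.93% and 7.18% of all tested genes (limma adjusted p under 0.05, 15.1% called in all). The median log2 change was 0.14 over the 10 enzymes and 0.01 over all tested genes. Shares over so few genes chosen with these results known are a description only. In the RBM33 set, PGK1 was the 1 enzyme called higher and 5 were called lower, against 8.5% and 9.25% of all tested genes (17.7% in all), with a median of -0.17 over the enzymes and -0.01 over all genes. Without overlap between groups, 5 enzymes lay above and 3 below scramble in the ALKBH5 set, where 12.3% and 11.9% of tested genes did so. The counts in the RBM33 set were 1 and 5, with 10.8% and 11.6% of tested genes.

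HK2, the hexokinase that phosphorylates glucose on entry, fell with ALKBH5 shRNA. It was at 122.1, 109.2, 101.8 and 105.2 CPM in ALKBH5 shRNA libraries and at 124.7, 128.8 and 136.7 CPM in scramble libraries. The groups came close without overlapping, and the log2 change was -0.25 (SE 0.07, limma adjusted p = 0.024). That call was lost when ALKBH5 shRNA-1 replicate 2, shRNA-2 replicate 1, scramble replicate 2 or scramble replicate 3 was left out, with log2 values of -0.254 to -0.207 and limma adjusted p of 0.059 to 0.11. With RBM33 shRNA HK2 ranged from 105.8 to 123.5 CPM, against 122.8 to 131.0 CPM with scramble, a log2 difference of -0.15 (SE 0.07, limma adjusted p = 0.16).

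PFKP, the platelet form of phosphofructokinase, was spread widely with ALKBH5 shRNA. ALKBH5 shRNA-1 libraries gave 59.06 and 44.84 CPM and ALKBH5 shRNA-2 libraries 61.14 and 68.98 CPM, against 51.74, 51.02 and 53.54 CPM with scramble. One shRNA-1 library lay below and the other 3 shRNA libraries above all scramble values. The log2 difference was 0.15 (SE 0.10, limma adjusted p = 0.34), and between shRNA-1 and shRNA-2 it was -0.33 (SE 0.13, limma adjusted p = 0.94). With RBM33 shRNA it was at 56.93 to 61.58 CPM and with scramble at 54.99 to 67.08 CPM, a log2 difference of -0.02 (SE 0.09, limma adjusted p = 0.93).

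ALDOA, which cleaves fructose bisphosphate, was lower in both sets. ALKBH5 shRNA libraries held 256.2, 249.4, 237.3 and 254.7 CPM, against 299.0, 290.7 and 286.2 CPM in scramble libraries. Libraries labelled RBM33 shRNA gave 265.0, 273.8, 283.6, 270.0 and 288.0 CPM, and their scramble gave 328.6, 307.9 and 312.4 CPM. Neither set overlapped, and ALDOA fell by 0.23 log2 units with ALKBH5 shRNA (SE 0.06, limma adjusted p = 0.014) and by 0.20 with RBM33 shRNA (SE 0.06, limma adjusted p = 0.02). The ALKBH5 call was lost without shRNA-2 replicate 1 or scramble replicate 1 (log2 -0.202 to -0.21, limma adjusted p = 0.055 and 0.064), and the RBM33 call without shRNA-1 replicate 1 or scramble replicate 1 (-0.19 and -0.174, limma adjusted p = 0.061 and 0.11) or with values rescaled to an equal sum per library (-0.148, limma adjusted p = 0.1).

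TPI1, which interconverts the products of that cleavage, moved in opposite directions. With ALKBH5 shRNA it was at 782.7, 647.1, 813.1 and 730.0 CPM, against 579.1, 643.3 and 576.5 CPM with scramble. Libraries labelled RBM33 shRNA held 627.2, 684.3, 740.6, 602.8 and 695.3 CPM, against 881.3, 803.6 and 836.9 CPM with scramble. All ALKBH5 shRNA libraries lay above and all RBM33 shRNA libraries below their scramble, with log2 changes of 0.31 (SE 0.08, limma adjusted p = 0.011) and -0.33 (SE 0.08, limma adjusted p = 0.0036). Without ALKBH5 shRNA-1 replicate 1, scramble replicate 1 or scramble replicate 3, the rise was 0.237 to 0.282 (limma adjusted p = 0.052 to 0.068). Listed TPI1 pseudogenes held 3.16% of the TPI1 level, the highest such share among the 10 genes, and how reads were split between such copies is uncertain.

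GAPDH, which oxidises glyceraldehyde phosphate and is often used as a reference gene, fell in the RBM33 set. GAPDH reached 1388, 1343, 1523 and 1334 CPM with ALKBH5 shRNA and 1209, 1319 and 1288 CPM with scramble, a log2 difference of 0.13 (SE 0.07, limma adjusted p = 0.23). Libraries labelled RBM33 shRNA gave 1188, 1290, 1366, 1129 and 1273 CPM and their scramble gave 1638, 1661 and 1662 CPM, a change of -0.41 log2 units (SE 0.07, limma adjusted p = 0.0002). ALKBH5 and RBM33 changes differed by 0.54 (SE 0.10, limma adjusted p = 0.0029). The RBM33 scramble libraries stood above every other library for GAPDH.

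PGAM1, the mutase after PGK1, rose with ALKBH5 shRNA. It was at 204.6, 209.5, 199.5 and 182.1 CPM with ALKBH5 shRNA and at 147.4, 154.1 and 145.2 CPM with scramble, with no overlap. The log2 change was 0.41 (SE 0.07, limma adjusted p = 0.0003), or 134% of the scramble level. With RBM33 shRNA it was at 169.2 to 208.4 CPM, across the 180.3 to 197.4 CPM of scramble, a log2 difference of 0.06 (SE 0.07, limma adjusted p = 0.62). PGAM4, a near copy of PGAM1 that lies on the other strand inside the listed span of PGK1, passed the threshold narrowly with ALKBH5 shRNA (log2 0.50, SE 0.17, limma adjusted p = 0.047). It belongs to a list of isozymes whose 3 rises were 0 or 1 in each fit with 1 ALKBH5-set library left out, and reads shared between the copies make its value uncertain.

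ENO1, the enolase of the pathway, was at 1248, 1261, 1299 and 1221 CPM with ALKBH5 shRNA and at 1229, 1153 and 1110 CPM with scramble. These groups overlapped, with a difference of 0.11 log2 units (SE 0.06, limma adjusted p = 0.26). ENO1 fell to 1147, 1167, 1211, 1096 and 1155 CPM in libraries labelled RBM33 shRNA, against 1486, 1419 and 1427 CPM with scramble, a change of -0.32 log2 units (SE 0.06, limma adjusted p = 0.00065). ALKBH5 and RBM33 changes differed by 0.43 (SE 0.09, limma adjusted p = 0.0069).

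PKM, the pyruvate kinase, was at 516.3, 504.4, 462.2 and 500.6 CPM with ALKBH5 shRNA and at 442.9, 461.9 and 396.2 CPM with scramble. The lowest shRNA library lay just above the highest scramble library, and the log2 difference of 0.19 (SE 0.07) missed the threshold at a limma adjusted p of 0.051. It passed without ALKBH5 shRNA-2 replicate 1 or scramble replicate 2 (0.223 and 0.241, limma adjusted p = 0.05 and 0.041), with a filter at a mean of 5 CPM (0.195, limma adjusted p = 0.039), and with DESeq2 on the recovered reads (0.19, DESeq2 adjusted p = 0.025). With RBM33 shRNA it was at 521.2 to 574.0 CPM and with scramble at 481.1 to 529.9 CPM, a log2 difference of 0.10 (SE 0.06, limma adjusted p = 0.31).

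LDHA, which turns pyruvate into lactate, was lower in both sets. ALKBH5 shRNA libraries held 437.1, 443.7, 460.6 and 408.5 CPM, against 521.6, 518.2 and 474.8 CPM with scramble. Libraries labelled RBM33 shRNA gave 460.6, 494.6, 486.7, 462.3 and 477.6 CPM and their scramble gave 607.9, 603.7 and 608.8 CPM. Groups did not overlap in either set, and LDHA fell by 0.21 (SE 0.06, limma adjusted p = 0.03) and by 0.35 (SE 0.06, limma adjusted p = 0.00028) on the log2 scale. The ALKBH5 call was lost without either ALKBH5 shRNA-1 library, replicate 3 of shRNA-2, or replicate 1 or 2 of scramble (-0.212 to -0.163, limma adjusted p = 0.052 to 0.12), and at -0.206 (limma adjusted p = 0.066) with the ALKBH5 set fitted alone.

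**Figure D3:**
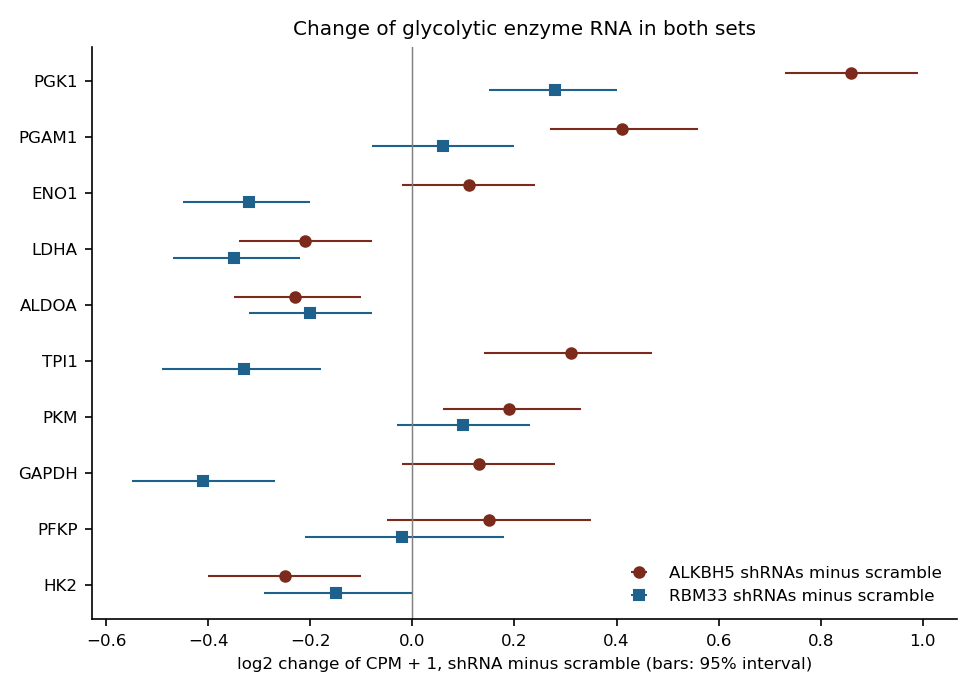
Log2 change of CPM + 1 (shRNA minus scramble) for the 10 genes in the ALKBH5 set (circles) and the RBM33 set (squares), with 95% intervals from the fit. PGK1 lies highest in both sets (0.86 and 0.28), and TPI1 lies on opposite sides of 0 (0.31 and -0.33).

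PGAM1, ENO1, TPI1 and GAPDH were called for the ALKBH5 change minus the RBM33 change, each with a more positive ALKBH5 value. PGK1, chosen on the RNA changes that enter this difference, is given as a description. Of all tested genes, 2.01% were called in that direction, 0.686% in the other and 2.69% in all. PGK1 differed by 0.59 (SE 0.09, 95% interval 0.41 to 0.77, given with no test), and TPI1 by 0.64 (SE 0.11, limma adjusted p = 0.0019). PGAM1 passed narrowly at 0.36 (SE 0.10, limma adjusted p = 0.048), a call lost in 13 of 15 fits with 1 library left out (0.319 to 0.384, limma adjusted p = 0.062 to 0.13). In the other 2 fits, without ALKBH5 shRNA-2 replicate 3 or RBM33 shRNA-2 replicate 1, it held. LDHA (0.14, SE 0.09), ALDOA (-0.03, SE 0.09), PKM (0.09, SE 0.09), PFKP (0.16, SE 0.14) and HK2 (-0.10, SE 0.10) were not called, with limma adjusted p from 0.48 to 0.93.

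The scramble groups of the sets differed as well. PGK1, PGAM1, ENO1, LDHA, TPI1 and GAPDH were called lower in ALKBH5 scramble than in RBM33 scramble libraries, with log2 differences of -0.28, -0.33, -0.31, -0.27, -0.49 and -0.38 (SE 0.07 to 0.09, limma adjusted p of the 5 other than PGK1 = 0.0015 to 0.034), where 2.21% of all tested genes were called lower, 0.269% higher and 2.48% in all. PGK1 was chosen on RNA differences that these scrambles enter, so nothing is read from its place in these counts. Without a scramble library, 2 to 4 enzymes were called lower (2 without ALKBH5 scramble replicate 3). LDHA was lost without any 1 of the 6 scramble libraries and PGK1 without any but RBM33 scramble replicate 1. ENO1 was lost without ALKBH5 scramble replicate 3 or RBM33 scramble replicate 1, and PGAM1 without replicate 1 or 3 of either scramble. With values rescaled to an equal sum per library, TPI1 alone of the 6 was called lower (-0.371), and PGK1 (-0.162), PGAM1 (-0.214), ENO1 (-0.195), LDHA (-0.15) and GAPDH (-0.263) were not. Median-of-ratios factors and edgeR on recovered reads each called all 6 lower. The rescaling to an equal sum moved the median of all genes in this comparison to 0.108, and the share of higher calls to 63.7%. That share was 10.8% without it and 12.5% with median-of-ratios factors. Higher calls made up 62% with this rescaling and 47.9% without it in the RBM33 set, and 50.2% and 74.5% in the comparison of both changes. A difference between the sets therefore includes the difference between their scrambles, and the target and the set cannot be told apart.

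Genes whose level followed PGK1 most closely over the 15 libraries, by Pearson's r among 10810 genes averaging at least 10 CPM, were NDUFB2 (0.96), HEY1 (0.96), DNAJB6 (0.94), KLHL18 (0.94) and HSPB1 (0.93). NDUFB2 encodes a subunit of respiratory complex I, HEY1 a Notch-induced repressor, and DNAJB6 and HSPB1 chaperones. Their log2 changes were 0.96, 0.49, 0.52, 0.81 and 0.79 with ALKBH5 shRNA and 0.30, 0.10, 0.29, 0.29 and 0.41 with RBM33 shRNA, given as a description because they were picked for their likeness. Among the enzymes r to PGK1 was 0.77 for PGAM1, 0.48 for PKM, 0.32 for TPI1 and PFKP, -0.01 for ENO1 and GAPDH, -0.63 for LDHA and -0.79 for ALDOA and HK2. The libraries form groups that differ in PGK1, correlations within groups were not computed, and these values carry no p-value.

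Apart from the start of PGK1, peaks of the enzymes had effects of -1.09 to 2.48 on the natural log scale in the authors' deposited tables. The authors' 4 effect tables listed 63 peaks in these genes, 54 with a positive effect and 9 with a negative one. In the ALKBH5 shRNA-1 and shRNA-2 tables, 13 of 16 and 34 of 40 were positive. In the RBM33 shRNA-1 and shRNA-2 tables, 4 of 4 and 3 of 3 were positive. The PGK1 start peak, on which PGK1 was chosen, is among the positive peaks of each table, so nothing is read from its place in these counts. Among all listed peaks, 64.7%, 72.5%, 87.6% and 87.5% were positive in these tables, which hold no absolute effect under 0.5. Of the 10 enzymes, 7, 10, 4 and 3 had a listed peak, PGK1 among them in each table. Among tested genes averaging at least 100 CPM, 69.0%, 73.3%, 23.8% and 27.8% had one.

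**Figure D4:**
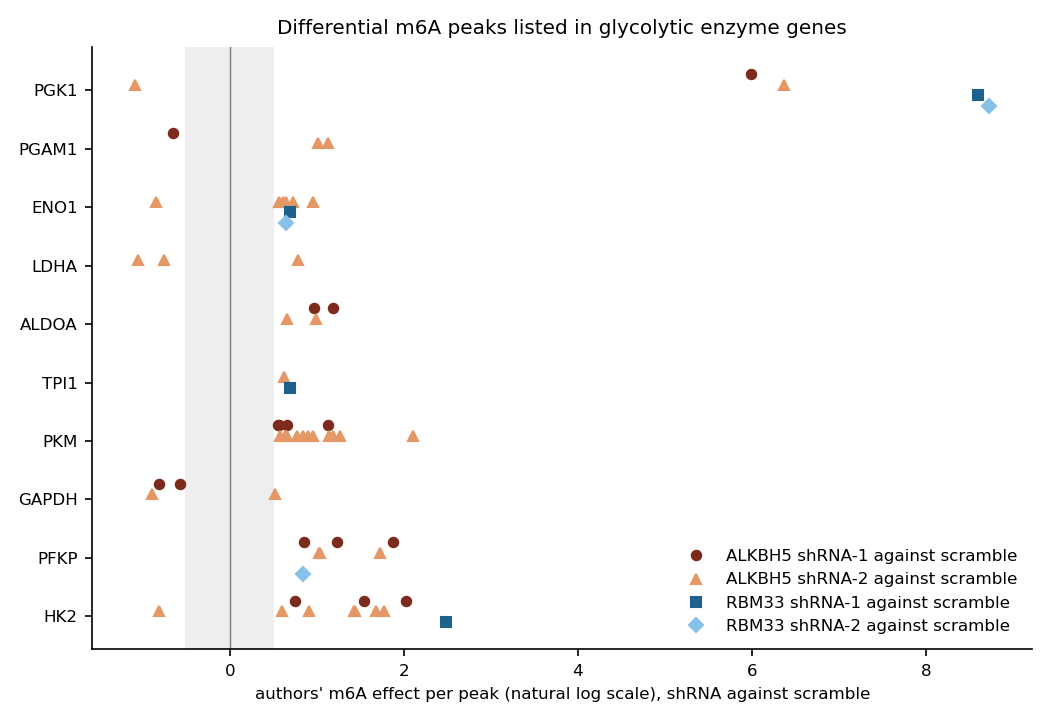
The authors' m6A effect (natural log scale, shRNA against scramble) of each listed peak in the 10 genes, with a symbol per effect table. The grey band marks the range from -0.5 to 0.5 that the tables do not hold; PGK1 start peaks lie at 5.99 to 8.73, and the other peaks between -1.09 and 2.48.

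The 63 peaks fell into 51 places, of which 8 were in at least 2 tables and 3 in both sets. Those 3 were the start of PGK1, a place in PFKP (10:3113510-3116816, effects 0.84 to 1.04 in 3 of the authors' deposited tables) and a place in HK2 (2:74890812-74890911). The HK2 place had an effect of 1.44 with ALKBH5 shRNA-2 and of 2.48 with RBM33 shRNA-1 in the authors' deposited tables. It lies 95.8% of the way along the HK2 gene. The start of PGK1 was the only place of these genes that all 4 effect tables shared.

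PKM held the most peaks, 16, all with positive effects of 0.55 to 2.1 in the authors' deposited ALKBH5 tables. HK2 had 10 positive and 1 negative peak, PFKP 7 positive, ENO1 7 positive and 1 negative, and ALDOA 4 positive. GAPDH had 3 negative and 1 positive peak. Near its end, at 12:6538234-6538375, the authors' deposited tables gave -0.82 with ALKBH5 shRNA-1 and -0.90 with ALKBH5 shRNA-2. LDHA had 2 negative peaks (-0.76 and -1.06) and 1 positive (0.78), all in the authors' deposited ALKBH5 shRNA-2 table. Counts were not compared between genes, since their listed lengths and levels differ.

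Level tables held few other peaks of the enzymes. For ENO1 at 1:8862910-8863248, the authors' deposited ALKBH5 shRNA-1 level table gave a log2 ratio of -1.79, while the authors' deposited ALKBH5 shRNA-2 effect table gave 0.96 on the natural log scale for the same interval, so both the shRNA and the kind of table differ between these values. TPI1 had one level peak with a positive log2 ratio of 2.42 (12:6867520-6867619) and one with a negative ratio of -1.11 (12:6868152-6868201) in the authors' deposited ALKBH5 shRNA-1 level table. PKM peaks in the authors' deposited ALKBH5 level tables had log2 ratios of 1.0 to 1.3.

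Promoters of PGK1 and LDHA are shown because PGK1 RNA was higher and LDHA RNA lower in the same libraries, although both are textbook HIF targets. Each stretch is the 250 bases before the RefSeq start (GRCh38.p14), X:78103998-78104247 for PGK1 and 11:18394313-18394562 for LDHA, both on the plus strand. Capitals mark ACGTG or its reverse complement CACGT, a common form of the core of the HIF binding motif, and overlapping matches run together.
PGK1 promoter: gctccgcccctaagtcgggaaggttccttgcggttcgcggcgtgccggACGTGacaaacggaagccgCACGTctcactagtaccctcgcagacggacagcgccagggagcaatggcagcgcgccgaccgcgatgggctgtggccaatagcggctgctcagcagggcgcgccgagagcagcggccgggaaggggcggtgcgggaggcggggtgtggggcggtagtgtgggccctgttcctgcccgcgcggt
LDHA promoter: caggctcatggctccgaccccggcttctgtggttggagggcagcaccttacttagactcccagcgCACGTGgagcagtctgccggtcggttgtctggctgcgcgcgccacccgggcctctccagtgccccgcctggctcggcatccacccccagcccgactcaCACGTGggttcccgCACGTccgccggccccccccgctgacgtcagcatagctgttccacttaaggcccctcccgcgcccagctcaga
In 300-base windows that add 50 bases after the start, PGK1 held 3 matches on either strand, and the first of 2 LDHA promoters held 5. Each CACGTG of LDHA counts on both strands, so its 5 matches lie at fewer places. The motif was found in 10 of 18 promoters of the enzymes, from 7 of the 10 genes, and in 21.4% of 34943 promoters overall. A match is a description of letters and not a bound site.

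Genes connected to the pathway were described by lists, chosen with earlier results of these data known. The HIF list holds HIF subunits, their regulators and response genes outside glycolysis. Of its 28 tested genes, 14 fell and 0 rose with ALKBH5 shRNA, where 7.18% and 7.93% of all tested genes did, with a median of -0.28. With RBM33 shRNA 13 fell and 0 rose, where 9.25% and 8.5% of all tested genes did, with a median of -0.29 (limma). At an unadjusted p under 0.05, 3 and 0 were higher. edgeR and DESeq2 on the recovered reads also called 0 of them higher in both sets. The 14 were 9 without ALKBH5 shRNA-1 replicate 1 or ALKBH5 scramble replicate 3. Both sets shared 11 of the genes that fell: 11 of 14 with ALKBH5 shRNA and 11 of 13 with RBM33 shRNA.
DDIT4, an inhibitor of mTORC1, had log2 changes of -0.84 and -1.04 with ALKBH5 and RBM33 shRNA, and LOX, a collagen crosslinking enzyme, of -1.1 and -0.92. NDRG1 had -0.54 and -0.84, and BNIP3, a mitophagy receptor, -0.32 and -0.48 (limma adjusted p of these genes from 7.8e-11 to 0.042). ERO1A, an oxidase of the endoplasmic reticulum, had -0.58 and -0.29, and ANKRD37 fell by 0.99 with RBM33 shRNA (limma adjusted p = 0.026). VHL and EGLN1, which oppose HIF, fell too, by 0.66 and 0.28 with ALKBH5 shRNA and by 0.32 each with RBM33 shRNA. HIF1A itself fell by 0.34 with ALKBH5 shRNA (limma adjusted p = 0.021). VEGFA, a classic HIF target, differed by 0.07 and -0.04 (limma adjusted p = 0.62 and 0.74). MIF fell by 0.43 with RBM33 shRNA (limma adjusted p = 6.6e-05) and was the 1 gene of the list whose changes differed between the sets (0.60, limma adjusted p = 0.00078).

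**Figure D5:**
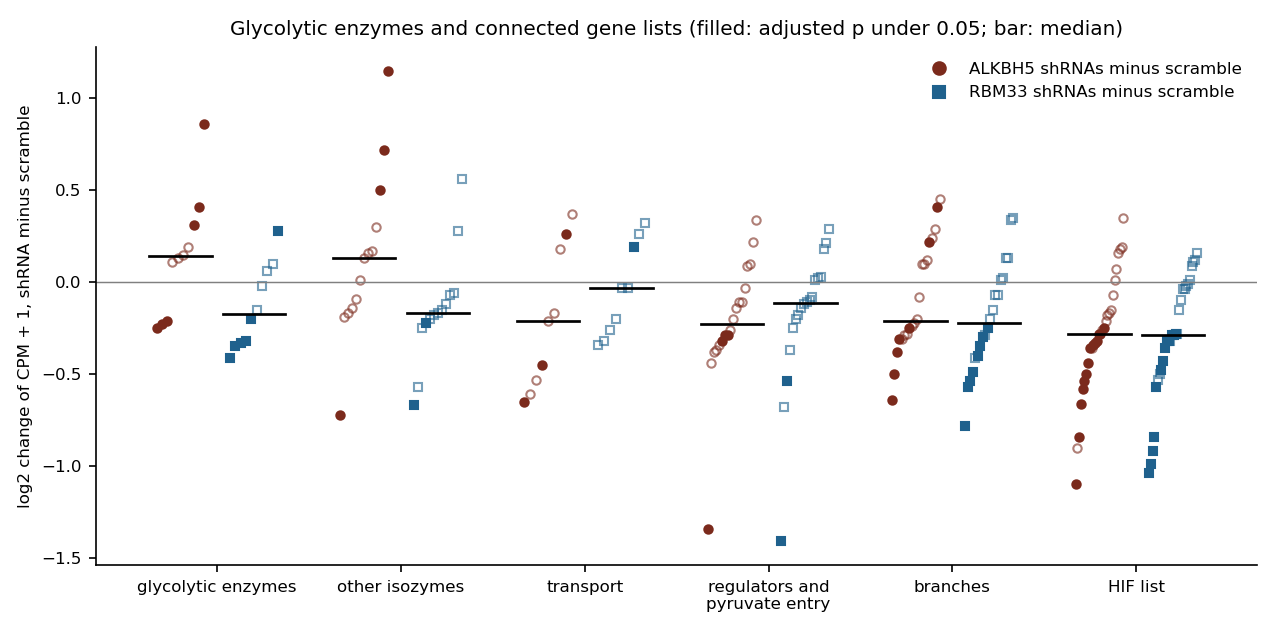
Log2 change of CPM + 1 (shRNA minus scramble) of each tested gene in the enzymes and in 5 connected lists, for the ALKBH5 set (circles) and the RBM33 set (squares); filled symbols have an adjusted p under 0.05 and bars are medians. Genes of the HIF list lie mostly below 0 in both sets, with medians of -0.28 and -0.29, while PGK1 is the top enzyme at 0.86 and 0.28.

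Among 18 tested regulators of glycolysis and pyruvate entry, 4 fell with ALKBH5 shRNA and 2 with RBM33 shRNA, against 7.18% and 9.25% of all tested genes. TXNIP, which restrains glucose uptake, was at 93.62 to 110.1 CPM with ALKBH5 shRNA and 248.0 to 278.4 CPM with scramble, a change of -1.34 log2 units (SE 0.09, limma adjusted p = 1.7e-10). It was at 92.28 to 124.9 CPM with RBM33 shRNA and 287.6 to 299.0 CPM with scramble, a change of -1.41 log2 units (SE 0.08, limma adjusted p = 2.2e-11). PDHB, MPC1 and PDK3 fell by 0.29, 0.32 and 0.29 with ALKBH5 shRNA, and PDP1 by 0.54 with RBM33 shRNA. The 4 were 1 without ALKBH5 shRNA-2 replicate 1 or scramble replicate 3, and 2 without shRNA-1 replicate 1 or scramble replicate 1. The 2 of the RBM33 set were 1 without RBM33 scramble replicate 3.

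Of 20 tested genes on branches from glycolysis, 2 rose and 5 fell with ALKBH5 shRNA and 8 fell with RBM33 shRNA, and the 5 were among the 8. Of all tested genes, 7.93% rose and 7.18% fell with ALKBH5 shRNA and 9.25% fell with RBM33 shRNA. They included GFPT1, the entry to hexosamines (-0.64 and -0.30), the serine synthesis genes PSAT1 (-0.25 and -0.35) and PSPH (-0.31 and -0.40), and PCK2 (-0.38 and -0.78). PHGDH, the first enzyme of serine synthesis, which draws on the product of PGK1, fell by 0.57 with RBM33 shRNA, to 414.4 to 517.8 CPM, against 662.8 to 672.9 CPM with scramble (limma adjusted p = 7.1e-06). PGM1, which links glucose phosphates to glycogen, fell by 0.54 with RBM33 shRNA (limma adjusted p = 6.3e-05). TALDO1 of the pentose phosphate pathway rose by 0.41 with ALKBH5 shRNA (limma adjusted p = 0.0012). Its list mate PRPS1 rose by 0.22 (limma adjusted p = 0.049). The 2 rises were 1 without either ALKBH5 shRNA-1 library, replicate 1 of ALKBH5 shRNA-2, or replicate 1 or 3 of scramble.

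Among 13 tested genes for other isozymes and remaining steps, HK3 (1.15), ENO3 (0.72) and PGAM4 rose and ALDOC (-0.72) fell with ALKBH5 shRNA, and ALDOC (-0.67) and HK1 (-0.22) fell with RBM33 shRNA. Of all tested genes, 7.93% were higher and 7.18% lower with ALKBH5 shRNA, and 9.25% lower with RBM33 shRNA. In each of the 7 fits with 1 ALKBH5-set library left out, 0 or 1 of the 3 rises was called, and the ALDOC fall was lost without replicate 2 of ALKBH5 shRNA-1, replicate 3 of ALKBH5 shRNA-2, or replicate 1 or 2 of scramble. The 2 falls of the RBM33 set were 0 or 1 without either shRNA-1 library, replicate 1 of shRNA-2, or any 1 of the 3 scramble libraries. Of 9 tested transport genes, BSG, a partner of lactate carriers, rose by 0.26 and the glucose carriers SLC2A3 and SLC2A12 fell by 0.45 and 0.65 with ALKBH5 shRNA. Without replicate 3 of ALKBH5 shRNA-2, 2 transport genes rose. SLC16A1, a lactate carrier, rose by 0.19 with RBM33 shRNA (limma adjusted p = 0.042), a call lost without replicate 2 of RBM33 shRNA-1, replicate 1 or 3 of RBM33 shRNA-2, or any 1 of the 3 scramble libraries. Its ALKBH5 change minus its RBM33 change was -0.36 (SE 0.09, limma adjusted p = 0.032). SLC2A1, the main glucose carrier of many tumours, differed by 0.37 and 0.26 (limma adjusted p = 0.084 and 0.21).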

How the data were processed

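Whole-transcript inputs and m6A-enriched libraries were sequenced from UM-SCC-1 cells. Per the submitters' processing notes the tools included cutadapt 1.18, HISAT2 2.1.0, featureCounts of Subread 1.6.4, edgeR 3.24.3 and DESeq2, with genome build hg38. The authors deposited a table of normalized signal, the CPM per gene and library. Its values are CPM of a normalized library size, and how that size was normalized is not stated in the sources used here. The authors' deposited edgeR and DESeq2 tables hold log2 fold changes with adjusted p-values, and the DESeq2 tables a mean normalized signal. The authors' deposited m6A effect tables hold effects on a natural log scale with p-values. The authors' deposited m6A level tables hold peak levels, not stated to be methylated fractions, with log2 ratios and p-values. The m6A software was not named in the labels.

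In every library 100% of CPM values were whole multiples of 1 read within 0.1 read, so reads were recovered. The 15 libraries held 4493849 to 6733017 reads, and 3 input libraries were not analysed here. Replicate pairs had a chi-square per degree of freedom of 3.03 to 9.09 and were kept apart. The labels do not state separate cultures, so p-values measure only how these samples vary, and that may be technical.

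Tests used limma 3.58.1 in R 4.3.3 with a trended variance on log2(CPM + 1). One fit of all 15 libraries, with 9 residual degrees of freedom, covered the 18227 genes that averaged at least 1 CPM. This scale understates fold changes of low genes. Benjamini-Hochberg adjusted p-values over all tested genes under 0.05 were called, and the procedure was tested on simulated data. Alternatives were other pseudocounts, filters and scalings, edgeR 4.0.16 and DESeq2 1.42.0 on recovered reads, each set alone, the replicate number as a block, and each library left out.

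The enzymes and all gene lists were chosen with earlier results of these data known. The 10 enzymes, ALKBH5 and RBM33 are named. Of each other list, up to 4 called genes per direction and set were named by size, and the 5 genes most like PGK1. EGLN1, HIF1A, VEGFA, MIF, BNIP3, PSAT1 and SLC2A1 fell outside this rule and were chosen after their values were seen. A gene that the rule reached is not reported here. The listed PGK1 span (X:77910739-78129295) overlaps ATP7A on the same strand and PGAM4 on the other. Peaks at 1 place are those whose blocks share at least 1 base. Sequences come from RefSeq (GRCh38.p14), where all 10 enzymes matched by symbol.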

Additional observations from a re-analysis of the deposited data

Results flagged for a closer look

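The change with ALKBH5 shRNA was more positive than that with RBM33 shRNA, each against its own scramble, past the threshold for 5 of the 10 enzymes, PGK1 among them, in a fit of the difference. Of all tested genes, 2.01% were called in that direction and 2.69% in all. The log2 difference was 0.59 for PGK1, which is a description since PGK1 was chosen for its change, and 0.36 for PGAM1. The PGAM1 call was lost in 13 of 15 fits with 1 library left out and under 5 other settings. The difference was 0.43 for ENO1, 0.54 for GAPDH and 0.64 for TPI1. For ENO1, TPI1 and GAPDH the libraries labelled RBM33 shRNA lay below their scramble, while for PGK1 and PGAM1 the larger value was the rise with ALKBH5 shRNA. All 5 were also lower in ALKBH5 scramble than in RBM33 scramble libraries, by 0.28 to 0.49 on the log2 scale. With values rescaled to an equal sum, TPI1 was still called (-0.371) and PGK1 (-0.162), PGAM1 (-0.214), ENO1 (-0.195) and GAPDH (-0.263) were not. Median-of-ratios factors and edgeR on recovered reads each called all 5 lower. The part of the difference between the scrambles was not tested.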

How the results depend on the processing

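PGK1 kept its direction in both sets under all 17 and 18 alternatives, with log2 changes of 0.837 to 0.888 (ALKBH5) and 0.243 to 0.329 (RBM33), and the difference of changes was 0.517 to 0.62 over 24. With values rescaled to an equal sum per library, 1 enzyme was called lower between the scrambles, against 6 with median-of-ratios factors and with edgeR. PGK1 there was -0.162 with the rescaling. PFKP in the RBM33 set (0.036) and ALDOA between scrambles (0.001) changed sign with it, and the cause was not tested. Deviations of same-numbered libraries from their group means correlated at -0.17 to 0.09 (ALKBH5) and -0.02 to 0.15 (RBM33). Pairs with different numbers gave -0.1 to 0.17 and -0.17 to 0.18. These values show no sign that replicate numbers pair samples. They cannot settle it, since deviations in a group of 2 libraries mirror each other. The replicate block left PGK1 at 0.858 and 0.275, called 2473 and 3046 genes in the sets, against 2754 and 3235 without it, and called 4 enzymes in the difference of changes. With 1 library left out, fewer samples were fitted and calls ranged from 1711 to 2356 genes (ALKBH5, with 1 to 2 enzymes lower), 2058 to 3109 (RBM33), 266 to 579 (difference of changes) and 241 to 330 (scrambles, with 2 to 4 enzymes lower). PGK1 then ranged from -0.311 to -0.233 between scrambles, 0.24 to 0.321 for RBM33 shRNA-1 against scramble, and -0.035 to 0.037 between RBM33 shRNAs. In such fits ALDOA in the difference of changes ran from -0.053 to 0, PFKP in the RBM33 set from -0.082 to 0.059, and PGK1 between RBM33 shRNAs was -0.035 and -0.012. PGAM1 in the difference of changes missed the threshold with no filter on low values (0.357), with rescaling (0.287), with median-of-ratios factors (0.347), with edgeR (0.354) and with the block (0.353). edgeR on recovered reads called 2808, 3245, 502 and 442 genes and DESeq2 2679, 2968, 721 and 621 (ALKBH5, RBM33, difference of changes, scrambles). m6A values per library were not used, so m6A effects have no error here, and the 2 to 3 libraries per group limit the precision of every RNA value.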
